A study of Mus musculus with 48 samples.

Results

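The guanylate-binding protein genes Gbp2, Gbp2b, Gbp3, Gbp4, Gbp5, Gbp6, Gbp7, Gbp8, Gbp9 and Gbp10 were followed through 48 mouse sarcomas. They were the rows of the count table whose Ensembl identifiers carry these symbols, 10 of 36854 genes. Gbp11, a relative outside the 10, was read beside them. Guanylate-binding proteins are large GTPases of cell-autonomous immunity that interferon gamma induces in most cell types. They assemble into coats on vacuoles and on bacteria in the cytosol, and some of them promote inflammasome signalling and pyroptosis. Interferon gamma acts on its target genes through GAS elements and through the factor IRF1, which it induces and which reads ISRE elements, while type I interferons act mainly through ISRE elements. In tumours their transcripts are known as part of the interferon gamma signature.

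The 48 tumours were p53/MCA sarcomas of mice of the 129/SvJae background, 16 allografts in 4 groups of 4 and 32 primary tumours in 4 groups of 8. Primary tumours were started in the gastrocnemius of p53FL/FL mice by Adeno-Cre, an adenovirus carrying Cre recombinase, and then by the carcinogen MCA, while allografts were cells of the line 402230 placed in the same muscle of syngeneic hosts, so that all allografts descend from 1 line. Within each kind the groups received 0 Gy and isotype antibody, 0 Gy and anti-PD-1 (muDX400, against an inhibitory receptor of T cells), 20 Gy and isotype, or 20 Gy and anti-PD-1. The antibody went in just before the hind limb was irradiated, and tumours were taken on day 3; the deletion of p53 and the MCA exposure belong to the primary tumours of every group, controls included, and the allograft line carries the p53/MCA label. Primary tumours were started in mice of 6 to 10 weeks, and the age of the allograft hosts is not given in the sources used here.

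The table held 31.8 to 54 M counts (M for 1e6) per tumour, with a median of 41.2 M. Values below are CPM (counts per 1e6 counts of the library) with edgeR's TMM scaling of library sizes, and differences are log2 fold changes from edgeR's quasi-likelihood F test, called at an adjusted p below 0.05 over all genes tested. All 10 genes passed the filter on low counts in every fit. The labelled tissue was checked on markers: the mesenchymal list (Col1a1, Col1a2, Col3a1, Fn1, Vim, Pdgfrb) summed to between 5853 and 63300 CPM in single tumours, and no gene of any marker list was at 0 throughout a group. Skeletal muscle markers ranged from 13.6 to 66000 CPM, both within the group of irradiated primary tumours given anti-PD-1. In bulk tumour RNA, more cells of a type and more transcript per cell cannot be told apart.

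The 10 genes form 2 clusters in the mm10 build (GENCODE M21 annotation). Gbp5, Gbp7, Gbp3, Gbp2b and Gbp2 lie in this order on the plus strand of chromosome 3 (chr3:142493978-142638008). Gbp8, Gbp9, Gbp4, Gbp10 and Gbp6 lie on the minus strand of chromosome 5 (chr5:105014150-105293698). All 10 are annotated as protein-coding. Gbp4, Gbp8 and Gbp9 overlap in an exon of 60 to 61 bases.

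RefSeq promoters of the GRCm38.p6 build, 250 bases before to 50 after the start, were found for the 5 genes of chromosome 3. The stretches that hold interferon motifs are shown because the members moved together and are known interferon targets. Capitals mark the ISRE core, GAAA, any 2 bases and GAAA again, on either strand (all matches here lie on the minus strand and read TTTC, 2 bases, TTTC) and the palindromic GAS element TTCNNNGAA. No ISRE match overlapped a GAS match.
Gbp2: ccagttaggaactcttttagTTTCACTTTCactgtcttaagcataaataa
Gbp2b: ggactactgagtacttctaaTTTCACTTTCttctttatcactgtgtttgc
Gbp3: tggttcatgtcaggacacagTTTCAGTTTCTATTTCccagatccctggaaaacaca
Gbp7: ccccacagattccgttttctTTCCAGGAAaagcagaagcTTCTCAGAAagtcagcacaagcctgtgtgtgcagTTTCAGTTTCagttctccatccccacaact
Gbp5: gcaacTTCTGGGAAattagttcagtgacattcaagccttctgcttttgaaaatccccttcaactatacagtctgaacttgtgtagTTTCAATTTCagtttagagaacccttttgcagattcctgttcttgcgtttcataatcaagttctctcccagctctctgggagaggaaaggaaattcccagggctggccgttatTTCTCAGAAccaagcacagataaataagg

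Each of the 5 genes had a promoter with the ISRE core, which was present in 1131 of 32851 RefSeq promoters (3.44%). Counted from the start site, the core lay from -59 to -50 in Gbp2, from -53 to -44 in Gbp7, from -45 to -36 and from -39 to -30 in Gbp3, and farther out in Gbp2b (from -137 to -128) and Gbp5 (from -165 to -156). The windows lie on the plus strand within chr3:142620413-142620712 for Gbp2, chr3:142594597-142594896 for Gbp2b, chr3:142559794-142560093 for Gbp3, chr3:142530086-142530385 for Gbp7 and chr3:142496684-142496983 for Gbp5. The 2 cores of Gbp3 overlap, and its other start (chr3:142560106-142560405) had none. GAS elements were found in Gbp5 and Gbp7 alone among the 5, 2 in each promoter, against 2726 of all promoters (8.3%). Both motifs together were in 149 promoters (0.454%). These are letter matches and do not show that a factor binds.

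How far reads can be told apart limits some members. Of the 50-base windows of each gene's transcripts, 81.9 to 98.6% were unique to the gene in 8 members. In Gbp6 it was 29.3%, with 45.9% of windows shared with Gbp10 and 65% with the overlapping model Gm43302, and in Gbp10 15.9%, with 73.3% shared with Gbp6. Gm43302 itself had 1 count over all 48 tumours. Values of Gbp6 and Gbp10 are therefore uncertain, and they may share reads with one another.

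Abundance was led by the chromosome 3 cluster, which held a median of 72.8 to 81.2% of the summed CPM of the 10 genes in the 8 groups. Summed levels averaged 341.2 ± 179.1 CPM (SD, n = 8) in primary tumours with neither treatment and 851.6 ± 517.3 (n = 4) in the corresponding allografts. They averaged 2327 ± 437.3 and 2671 ± 824.4 in irradiated allografts with isotype and with anti-PD-1. In irradiated primary tumours the sums were 1535 ± 544.8 and 1492 ± 754.1 CPM. Per kilobase of exon, Gbp2 had the highest mean in every group, from 31.48 CPM per kb in untreated primary tumours to 234.8 in allografts given both treatments. Gbp10 was lowest of the 10 per kilobase in every group, at 0.3201 ± 0.317 CPM per kb in untreated primary tumours. Lengths were those of all exons, while only 15.9% of Gbp10 windows and 29.3% of Gbp6 windows were unique. Per-kilobase levels of these genes, the rank of Gbp10 and the share of chromosome 3 are therefore uncertain.

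**Figure D1:**
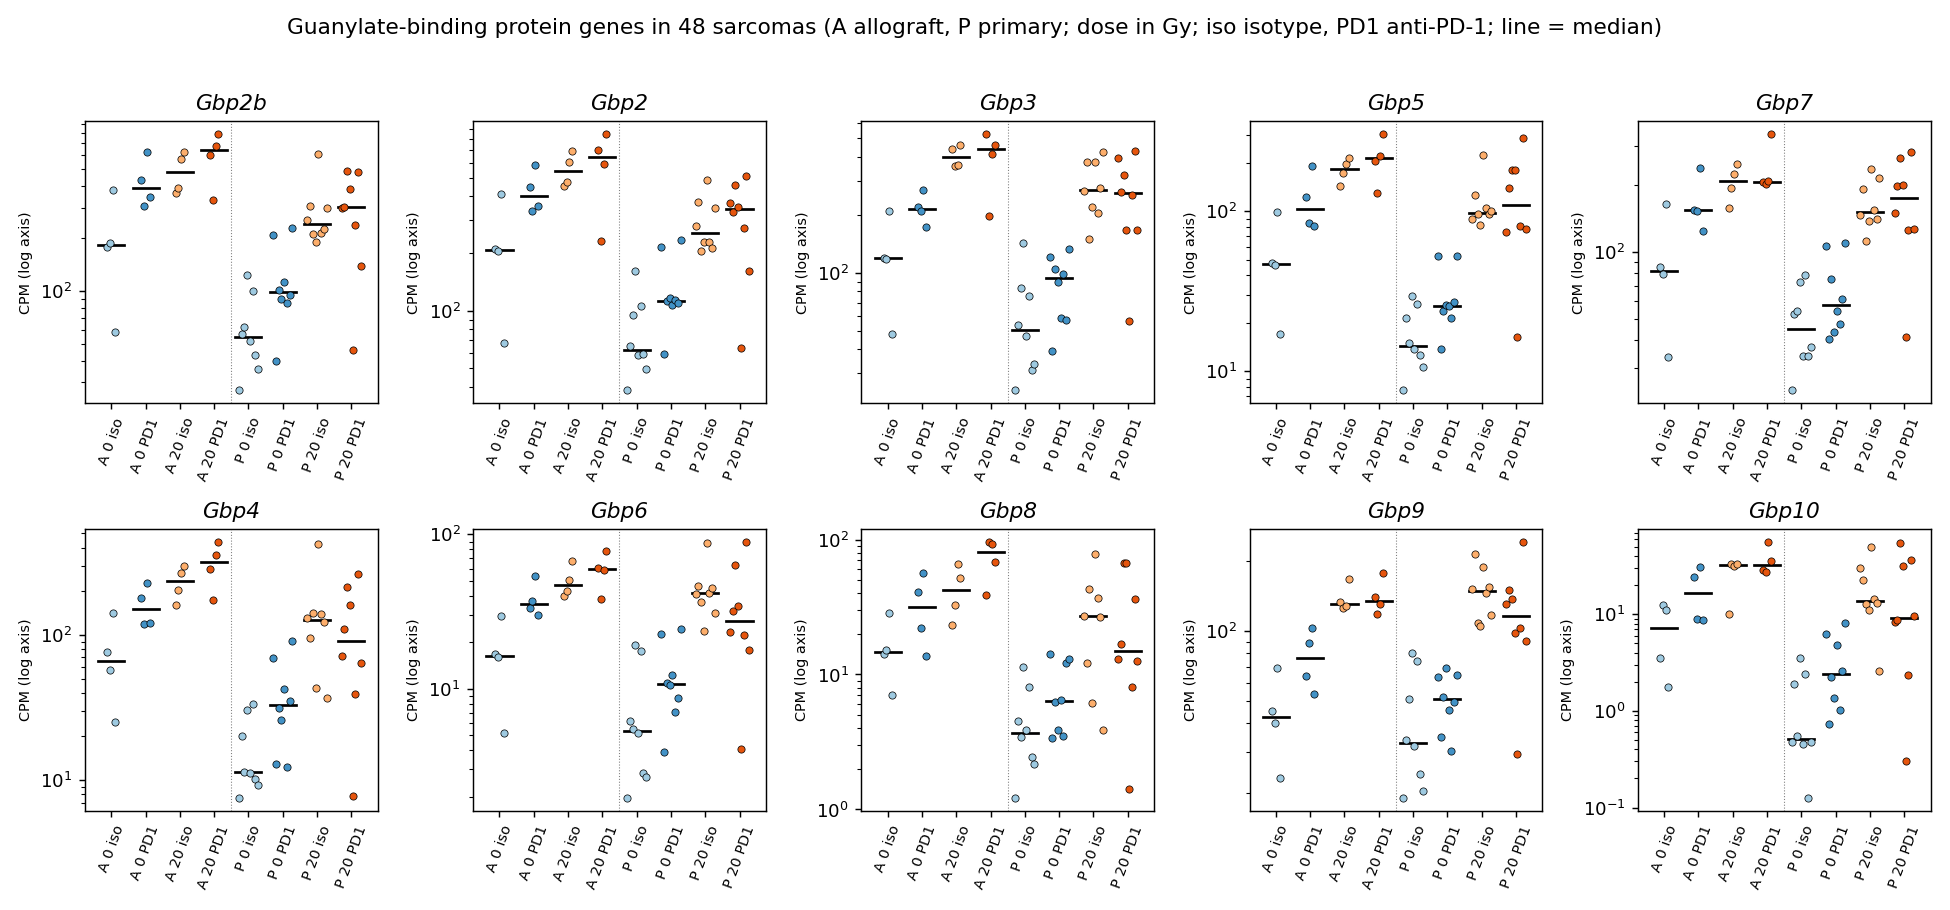
CPM of each of the 10 genes on a log axis in the 8 groups, with 1 point per tumour. The untreated primary tumours lie lowest for all 10 genes by group mean, and Gbp10 spans the widest range, from 0.1255 to 56.55 CPM.

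The first comparison asked what 20 Gy did in primary tumours given isotype antibody. All 10 genes rose, by a median of 2.39 on the log2 scale against -0.02 over all 17770 genes, where 7.85% of genes were called higher. The chromosome 5 members Gbp10 and Gbp4 had the largest fold changes and Gbp7 the smallest. For 8 of the 10 the groups of 8 did not overlap, which held for 1.55% of all genes with the irradiated group higher. The 2 exceptions were Gbp8 and Gbp10.

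Gbp5, a member known for promoting NLRP3 inflammasome assembly, ran from 7.589 to 29.42 CPM (median 14.44) at 0 Gy and from 82.59 to 224.6 (median 98.36) at 20 Gy. Every irradiated tumour was above every unirradiated one. Its log2 difference was 2.77 (SE 0.393), a 6.82-fold rise with an adjusted p of 4.33e-05. Gbp2, a widely studied member that coats pathogen vacuoles, ran from 38.18 to 161 CPM (median 62.31) at 0 Gy and from 205 to 486.1 (median 255.6) at 20 Gy. These groups were also apart, and the 3.78-fold rise had an adjusted p of 0.000273. Gbp2b, the counterpart once named Gbp1, moved from a mean of 62.76 ± 33.29 to 288.9 ± 134.8 CPM, 4.67-fold higher (adjusted p = 0.000306). Gbp3 moved from 61.55 ± 39.09 to 286.4 ± 96.6 CPM, 4.7-fold (adjusted p = 0.00013). Gbp7, tied to host defence and oxidase assembly, moved from 48.45 ± 19.73 to 166.5 ± 42.85 CPM, 3.49-fold (adjusted p = 0.000151).

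On chromosome 5, Gbp4 ran from 7.536 to 33.36 CPM (median 11.37) at 0 Gy and from 36.81 to 420.4 (median 127.2) at 20 Gy. The lowest irradiated tumour was only just above the highest unirradiated one, and the spread among irradiated tumours was 11.4-fold. The mean rise was 8.65-fold, with a log2 difference of 3.11 (SE 0.571, adjusted p = 0.00043). Gbp9 was tighter, with 19.09 to 80.2 CPM (median 32.98) against 105.3 to 213.7 (median 148.5), 3.58-fold higher (adjusted p = 0.000219). Gbp6 rose 5.86-fold from a mean of 7.631 ± 6.816 CPM (adjusted p = 0.000977). Gbp8 rose 6.45-fold from 4.63 ± 3.384 CPM (adjusted p = 0.00428), with 6 of 8 irradiated tumours above the highest control. Gbp10 ran from 0.1255 CPM, which was 5 counts, to 3.535 (median 0.5159) at 0 Gy, and from 2.602 to 49.41 (median 13.82) at 20 Gy. Its difference of 3.99 (SE 0.792), 15.9-fold, was the largest of the 10 (adjusted p = 0.000942), and 7 of 8 irradiated tumours exceeded every control.

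Pathway genes fixed in lists moved in parts of the same comparison. Of 5 tested interferon and related ligand genes of 11 listed, 3 rose, among them Tnf and Il18. Ifng, the gene of interferon gamma, had a mean of 0.1499 ± 0.1547 CPM at 0 Gy and 0.7252 ± 0.8183 at 20 Gy, a log2 difference of 2.29 (SE 0.824) that was not called (adjusted p = 0.0586). Of 13 receptor and signalling genes 7 rose, Stat2 and Socs1 among them. Of 8 interferon regulatory factors 7 rose, with Irf7, Batf2 and Irf5 first. Irf1 rose by 1.51 (SE 0.276, adjusted p = 0.000431).

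All 11 immunity-related GTPases, a second family of interferon-inducible GTPases, rose (median 2.54), with Irgm1, F830016B08Rik and Irgm2 having the smallest p. All 14 type I interferon response genes rose (median 2.09; Oas2, Ifit2 and Mx1 first). Of 14 interferon gamma response genes 11 rose (median 1.7; Cd274, Cxcl11 and Tap1 first). Of 8 inflammasome and pyroptosis genes 6 rose, Gsdmd, Casp1 and Nlrp3 first. Autophagy conjugation genes, whose products are needed to load these GTPases on vacuoles, had 0 of 10 higher and 1 lower (Gabarapl1). The genes that prenylate and process CaaX proteins, a modification that some members carry, had 0 of 6 higher and 2 lower (Fntb, Zmpste24). Gbp11 rose by 4.42 (SE 0.773, adjusted p = 0.000281), the other 3 relatives listed being atlastins.

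Leukocyte markers moved with this result. All 4 pan-leukocyte genes (Ptprc, Itgb2, Coro1a, Laptm5) rose, and their summed CPM was 432.5 to 667.7 at 0 Gy and 719.2 to 1587 at 20 Gy, with none at 0. Ptprc, the gene of CD45, rose by 1.09 (SE 0.316, adjusted p = 0.0195). Of 6 neutrophil and monocyte markers, 3 rose (75.5 to 261 against 161 to 1152 CPM summed), of 6 macrophage markers 3 (1310 to 2400 against 1620 to 3121), and of 9 T and NK cell markers 1 (22.7 to 246 against 79.5 to 337 CPM). With the Ptprc level as a covariate 9 of the 10 were still called, Gbp8 being lost, and their median difference was 1.61.

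In primary tumours given anti-PD-1 the same dose comparison called 8 of the 10 higher, against 6.06% of all genes called higher. The median difference was 1.57. For 0 of the 10 was every irradiated tumour above every control. Gbp5 ran from 13.72 to 52.93 CPM (median 25.77) at 0 Gy and from 16.42 to 286.1 (median 109.9) at 20 Gy. All irradiated tumours but 1 were above the controls, and the rise was 4.38-fold (log2 2.13, SE 0.383, adjusted p = 0.000952). Gbp10 rose 5.8-fold (adjusted p = 0.031) and Gbp3 2.99-fold (adjusted p = 0.00602). Gbp2 rose 2.41-fold and Gbp7 2.65-fold. Gbp9 rose 2.46-fold, Gbp2b 2.54-fold and Gbp6 2.94-fold (adjusted p = 0.0452). Gbp4, at 1.59 (SE 0.539, adjusted p = 0.0648), and Gbp8, at 1.87 (SE 0.613, adjusted p = 0.0547), were not called.

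The irradiated primary tumour given anti-PD-1 with replicate number 5 stood apart. It lay 2.69 log2 units below its group on average over the 10 genes, and none of them was above the group mean. Gbp10 was 0.3023 CPM there, against 54.27 in the highest tumour of the group, a 180-fold range. Its Ptprc level, 5.86 on the log2 scale, was the lowest of all 48 tumours, and its Ifng level was 0.0378 CPM. Without this tumour all 10 genes were called in the dose comparison, Gbp5 at 2.3 (SE 0.333) and Gbp4 at 1.76 (SE 0.497, adjusted p = 0.0211). Replicate numbers here only name tumours and were assigned in accession order, since the labels give none. Leaving out replicate 2, 6 or 7 of the controls or replicate 3, 4 or 7 of the irradiated tumours gave 5 calls, as did a fit of these groups alone, and the Ptprc covariate gave 4. Pan-leukocyte markers summed to 448.6 to 765.7 CPM at 0 Gy and 417.7 to 1878 at 20 Gy, with 2 of 4 called higher, and neutrophil and monocyte markers to 85.4 to 525.9 and 121.5 to 913.6 CPM, with 2 of 6 called higher, both lists overlapping.

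**Figure D2:**
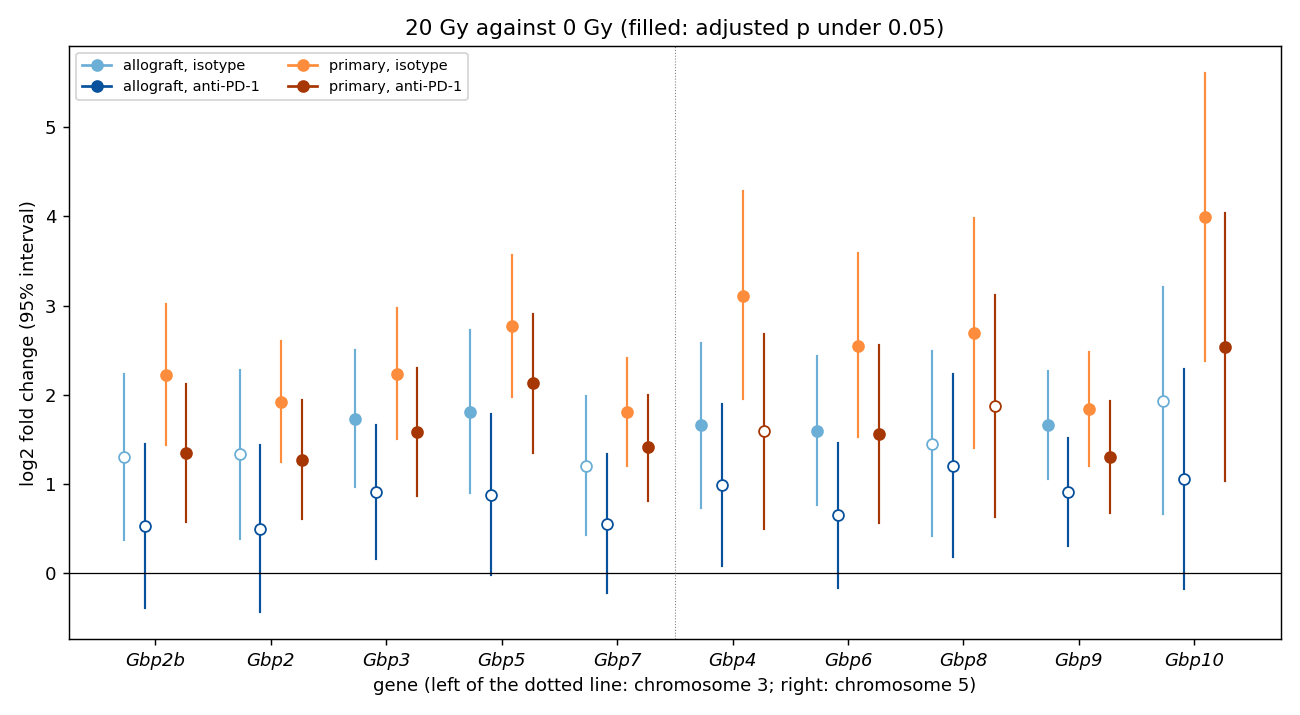
Log2 fold change of 20 Gy against 0 Gy for each gene, with its 95% interval, in allografts and primary tumours and with either antibody. All 40 estimates are above 0, and filled points mark adjusted p under 0.05, which all 10 genes reach in primary tumours with isotype.

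In allografts given isotype the dose comparison called 5 of the 10 higher (Gbp3, Gbp4, Gbp5, Gbp6, Gbp9), against 4.4% of all 17746 genes called higher. The median difference was 1.62. All 4 irradiated tumours lay above all 4 controls in 6 genes, these 5 and Gbp2, as they did in 9.45% of all genes. Gbp9 was 45.08, 40, 69.54 and 23.33 CPM at 0 Gy and 133.4, 125.3, 128.1 and 167.8 at 20 Gy. The groups were far apart, with little spread at 20 Gy. The rise was 3.17-fold (log2 1.66, SE 0.287, adjusted p = 0.00422). Gbp3 was 119.5, 118.2, 209.7 and 48.3 CPM against 438.2, 357.8, 364.2 and 463.6, a 3.33-fold rise (adjusted p = 0.013). Gbp5 was 47.77, 46.07, 99.48 and 17.18 CPM against 143.1, 173.4, 196.6 and 215.6, a 3.52-fold rise (adjusted p = 0.0254). Here too every irradiated tumour was above every control. Gbp4 rose 3.15-fold (adjusted p = 0.0385) and Gbp6 3.01-fold (adjusted p = 0.0288).

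The remaining 5 had estimates of 1.2 (Gbp7) to 1.93 (Gbp10) and adjusted p of 0.075 to 0.108. Gbp2 was 211.8, 206.1, 411 and 67.98 CPM at 0 Gy and 451, 476, 606.3 and 687.3 at 20 Gy. Its groups did not overlap, yet with an SE of 0.446 on a difference of 1.33 it missed the threshold (adjusted p = 0.108). The untreated allografts were uneven, replicate 3 being 1.05 above and replicate 4 being 1.29 log2 units below the group over the 10 genes. Without untreated replicate 3, 9 genes were called, without replicate 4, 3, without replicate 1 or 2, 1, and without irradiated replicate 3 or 4, 2. Gbp9 was called in all 8 fits that left out 1 tumour. DESeq2 called 10 of the 10, the fit of these groups alone 2, and the fit of all 48 tumours 2.

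Among the lists, all 14 type I interferon response genes rose in these allografts (median 2.7; Rsad2, Oasl1 and Oas2 first), and 5 of 14 interferon gamma response genes (median 1.08; Cxcl11, Cxcl10 and Cd274 first). Of the immunity-related GTPases 6 of 11 rose, Irgm1, Gm12250 and Ifi47 first. Of the regulatory factors 4 of 8 rose (Irf7, Irf9 and Irf5 first), of the receptor and signalling genes 4 of 13 (Usp18, Stat2 and Ifnar2 first), of the inflammasome genes 5 of 8, and of the autophagy and prenylation genes 0 of 10 and 0 of 6. Irf1 was at 0.932 (SE 0.271, adjusted p = 0.0617) and Ifng at 0.922 (SE 0.552, adjusted p = 0.413), and neither was called. Ifnb1, the gene of interferon beta, rose by 2.83 (SE 0.717, adjusted p = 0.0329) from a mean of 0.1263 CPM. Gbp11 rose by 2.25 (SE 0.389, adjusted p = 0.00422).

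Pan-leukocyte markers did not overlap between these groups, 483 to 1106 CPM summed at 0 Gy and 1375 to 1788 at 20 Gy, and all 4 rose. Ptprc rose by 1.59 (SE 0.305, adjusted p = 0.00802). T and NK markers were 56.6 to 188 against 215 to 327 CPM, with 2 of 9 called, and macrophage markers 1260 to 1899 against 2240 to 3464, with 1 of 6. Neutrophil and monocyte markers were 219 to 455.2 against 519.3 to 799.8 CPM, with 1 of 6 called. None of these 4 lists overlapped between the groups. With the Ptprc level in the model 0 of the 10 were called, the median difference was 0.372 and Gbp8 turned to -0.487. Ptprc ran from 96.58 to 221.3 CPM at 0 Gy and from 308 to 497.5 at 20 Gy, without overlap. That model can therefore hardly separate Ptprc from dose, and the share of all genes it calls is not given here. Transcripts of Xist, made in female cells, exceeded 10 CPM in 1 of 4 untreated and 3 of 4 irradiated allografts, and 3 genes were called with that as a covariate. The identifiers in the sample titles began with the digit 5 in all 4 untreated and in 1 of 4 irradiated tumours, which the labels do not explain, and with that digit as a covariate 1 was called.

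In allografts given anti-PD-1, 20 Gy called 0 of the 10, against 3.13% of all genes higher. With an unadjusted p under 0.05 there were 4 (Gbp3, Gbp4, Gbp8, Gbp9), all higher, against 11% of all genes higher, and with DESeq2 there was 1. The median difference was 0.891 and all 10 estimates were positive. Gbp9 was 63.81, 88.59, 103.5 and 53.44 CPM at 0 Gy and 139.5, 118.6, 130.9 and 177.1 at 20 Gy. It was the 1 gene whose groups did not overlap, as in 5.44% of all genes with the irradiated group higher, with a difference of 0.906 (SE 0.282, adjusted p = 0.0868). Gbp5 was 122.5, 84.81, 193.5 and 81.45 CPM against 207.6, 129.6, 221.1 and 304.1, overlapping through irradiated replicate 2. The type I interferon list was called in 14 of 14 genes in the same comparison (median 2.02), and the interferon gamma list and the immunity-related GTPases in 0 of 14 and 0 of 11. Pan-leukocyte markers summed to 554 to 1293 CPM at 0 Gy and 1732 to 2072 at 20 Gy, without overlap, with 1 of 4 called, and T and NK markers to 122.1 to 345.5 and 317 to 583 CPM, overlapping, with 1 of 9 called. With the Ptprc covariate 9 of the 10 estimates turned negative, from -0.747 to -0.0318, and Gbp9 was 0.0221. Ptprc itself ran from 107.4 to 293.3 CPM at 0 Gy and from 484.7 to 599.1 at 20 Gy. As these ranges do not overlap, the fit can hardly separate Ptprc from dose, and no conclusion is drawn from the signs.

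Without radiation, anti-PD-1 was set against isotype. In allografts all 10 estimates were above 0, from 0.782 (Gbp9) to 1.33 (Gbp10) with a median of 1.04, but edgeR called 0, as it did among all genes (0%), and DESeq2 called 0. With an unadjusted p under 0.05 there were 8 of the 10, all but Gbp2 and Gbp8, all higher, against 1.27% of all genes higher and 1.68% in either direction. Gbp6 was 16.71, 16.05, 29.79 and 5.198 CPM with isotype and 33.51, 36.86, 54.15 and 30.22 with anti-PD-1. It was the 1 gene with groups apart, as were 0.327% of all genes with the anti-PD-1 group higher, at 1.17 (SE 0.388, adjusted p = 1). Gbp2 was 445.8, 332.5, 584.1 and 356.5 CPM with anti-PD-1, a range that overlapped those of the isotype tumours and of the irradiated ones given isotype. Ifng was 1.092 ± 0.759 CPM with isotype and 2.742 ± 1.265 with anti-PD-1 (difference 1.3, SE 0.554, adjusted p = 1). The 9 T and NK markers summed to 56.6 to 188 CPM with isotype (median 123.6) and to 122.1 to 345.5 with anti-PD-1 (median 234.4), so that the groups overlapped, and none was at 0 throughout a group. Their part in these values was not tested. With the Ptprc covariate the 10 estimates were 0.445 to 0.982.

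In primary tumours at 0 Gy anti-PD-1 gave estimates of 0.27 (Gbp9) to 1.42 (Gbp10), all 10 positive, with a median of 0.742. None was called, as among all genes (0%), and 4 had an unadjusted p under 0.05 (Gbp2, Gbp2b, Gbp4, Gbp5), all higher, against 1.2% of genes higher and 2.32% in either direction. Gbp4 ran from 7.536 to 33.36 CPM (median 11.37) with isotype and from 12.28 to 91.25 (median 33.1) with anti-PD-1. Of the latter, 4 of 8 were above the highest isotype tumour, and the difference was 1.24 (SE 0.535, adjusted p = 1). DESeq2 also called 0.

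At 20 Gy the antibody comparison called 0 of the 10 in either kind of tumour, as among all genes (0% in each), and 0 had an unadjusted p under 0.05, against 3.84% of genes in allografts (2.54% higher) and 8.12% in primary tumours (5.14% higher). In allografts estimates ran from -0.0283 (Gbp3) to 0.763 (Gbp8, 95% interval -0.255 to 1.78). In primary tumours they ran from -0.303 (Gbp6) to 0.173 (Gbp5, 95% interval -0.576 to 0.923), 4 of 10 being positive. These intervals do not show that the antibody left the genes unchanged.

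The interaction of dose and antibody asks whether 20 Gy changed the genes less under anti-PD-1. It was below 0 for all 10 genes in both kinds, from -0.947 (Gbp6) to -0.248 (Gbp8) in allografts and from -1.53 (Gbp4) to -0.395 (Gbp7) in primary tumours. None was called, as none of all genes was (0% in each), with adjusted p of 0.864 to 0.94 and of 0.971. With an unadjusted p under 0.05 there were 0 in allografts, against 1.52% of genes, and 1 in primary tumours, against 4.25%. That gene was Gbp4, at an unadjusted edgeR p of 0.0499. The 10 genes share their tumours, so their shared sign is not independent evidence. A smaller response to 20 Gy under anti-PD-1 was thus not shown.

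The combination against neither treatment called 9 of the 10 higher in allografts, all but Gbp2, against 7.43% of genes higher and 9.66% called in either direction. For 7 of them every treated tumour was above every control, as for 8.72% of genes. Gbp4 rose 4.22-fold there (adjusted p = 0.00814) and Gbp10 5.21-fold (adjusted p = 0.0214), and the Ptprc covariate left 0 calls. Ptprc levels did not overlap between these groups either, so the covariate can hardly be separated from treatment. In the fit of all 48 tumours 4 were called. Pan-leukocyte markers summed to 483 to 1106 CPM with neither treatment and to 1732 to 2072 with both, and T and NK markers to 56.6 to 188 and 317 to 583, with no overlap in either list. In primary tumours all 10 were called higher, against 8.78% of genes higher and 13.8% called in either direction, from 2.96-fold in Gbp9 to 15.5-fold in Gbp10, and Gbp5 had the smallest adjusted p (7.69-fold, 4.05e-05). For 0 of the 10 was every treated primary tumour above every control. Pan-leukocyte markers there summed to 432.5 to 667.7 and 417.7 to 1878 CPM, and T and NK markers to 22.7 to 246 and 12.4 to 292, both lists overlapping. These contrasts share the untreated tumours with those of 20 Gy alone.

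**Figure D3:**
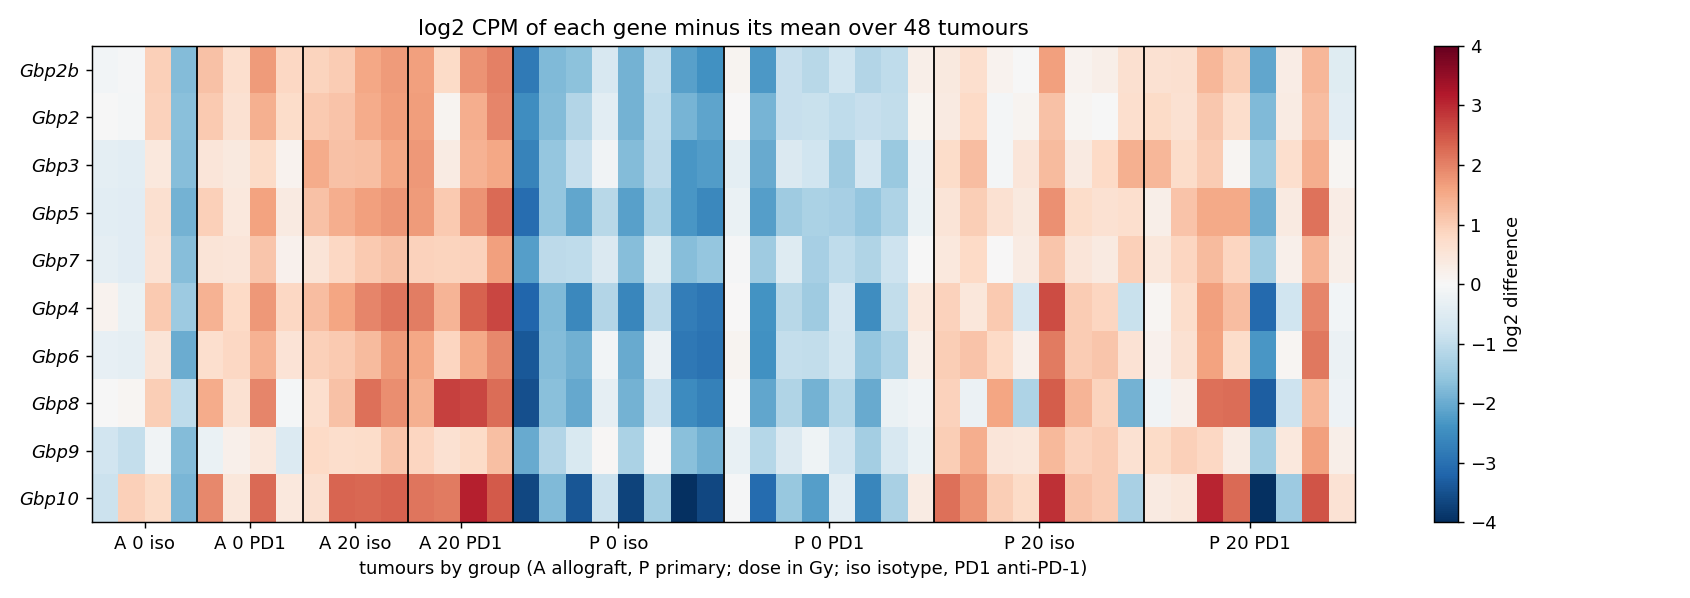
Log2 CPM of each gene in each of the 48 tumours, less the gene's mean over all tumours, with tumours as columns by group. Columns tend to be high or low for all 10 genes together, and the column of replicate 5 among irradiated primary tumours given anti-PD-1 is low for all 10.

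Tumour kinds were compared within each treatment. With neither treatment, 6 of the 10 were lower in primary tumours than in allografts (Gbp2, Gbp2b, Gbp4, Gbp5, Gbp8, Gbp10), against 3.99% of 17357 genes called lower. The median was -1.56. Gbp4 ran from 7.536 to 33.36 CPM (median 11.37) in 8 primary tumours and was 75.81, 57.18, 141.8 and 25.04 in the allografts. The groups met through allograft replicate 4, and primary tumours were lower by a log2 difference of -2.17 (SE 0.468, adjusted p = 0.0123). Gbp10 was at -2.54 (SE 0.747, adjusted p = 0.048) and Gbp5 at -1.62 (SE 0.413, adjusted p = 0.0268). Gbp9 had nearly equal means, 41.91 ± 24.1 and 44.49 ± 19.11 CPM, with a 95% interval from -0.999 to 0.828. The count fell to 0 without allograft replicate 3, to 1 without replicate 1 or 2, and to 2 without primary replicate 2, 7 or 8. It was 3 without primary replicate 1, 3 or 5. With Xist above 10 CPM as a covariate 1 was called, and with the muscle marker level 3. Cell type markers differed too: mesenchymal markers summed to 17180 to 41770 CPM in primary tumours and 11160 to 15320 in allografts, without overlap, with 3 of 6 higher. T and NK markers summed to 22.7 to 246 and 56.6 to 188 CPM (medians 41.8 and 123.6), with 3 of 9 lower and 1 higher, and neutrophil and monocyte markers to 75.5 to 261 and 219 to 455.2 CPM, with 2 of 6 lower, both lists overlapping.

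Under anti-PD-1 at 0 Gy, 9 of the 10 were lower in primary tumours, all but Gbp9, against 3.99% of genes called lower. In 8 of these, all but Gbp8, every primary tumour was below every allograft, as in 2.55% of genes. Gbp5 ran from 13.72 to 52.93 CPM (median 25.77) in primary tumours and was 122.5, 84.81, 193.5 and 81.45 in allografts, a difference of -1.97 (SE 0.34, adjusted p = 0.00514). Gbp2 ran from 59.5 to 234.9 CPM (median 113.2) in primary tumours and averaged 429.7 ± 113.9 (SD, n = 4) in allografts, a difference of -1.67 (SE 0.304, adjusted p = 0.00644). Gbp9 was at -0.586 (SE 0.234, adjusted p = 0.138). Without allograft replicate 3 the count was 3, and without replicate 1 it was 5. With the muscle marker level as a covariate 3 were called.

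In the same comparison all 10 tested immunity-related GTPases were lower in primary tumours (Tgtp1, Igtp and Ifi47 first), and 10 of 14 interferon gamma response genes (Ido1, Socs1 and Psmb8 first), but 0 of 14 type I interferon response genes, whose median was -0.00782. Ifng was lower by -3.19 (SE 0.588, adjusted p = 0.00692) and Irf1 by -1.25 (SE 0.177, adjusted p = 0.00207). Of the T and NK cell markers 5 of 9 were lower, with sums of 33.5 to 148 CPM in primary tumours and 122.1 to 345.5 in allografts, and of the mesenchymal markers 2 of 6 were higher. The Ptprc covariate left 0 of the 10 called with neither treatment and 0 under anti-PD-1, with medians of -0.587 and -1.05. With neither treatment all primary tumours carried identifiers that begin with 4 and all allografts ones that begin with 5, so that digit and tumour kind cannot be told apart there. Under anti-PD-1 the digit as a covariate left 0 calls. There too it nearly coincided with tumour kind, so that fit can hardly tell the digit and the kind apart.

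At 20 Gy no member was called between kinds, with isotype against 2.4% of genes lower and with anti-PD-1 against 0.00566%. With isotype 3 had an unadjusted p under 0.05 (Gbp2, Gbp2b, Gbp5), all lower, against 8.19% of genes lower, and DESeq2 called 1. With anti-PD-1 1 had (Gbp4), also lower, against 7.58%. The medians were -0.483 and -0.822. Without primary replicate 5, the highest of its isotype group, 3 were called.

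**Figure D4:**
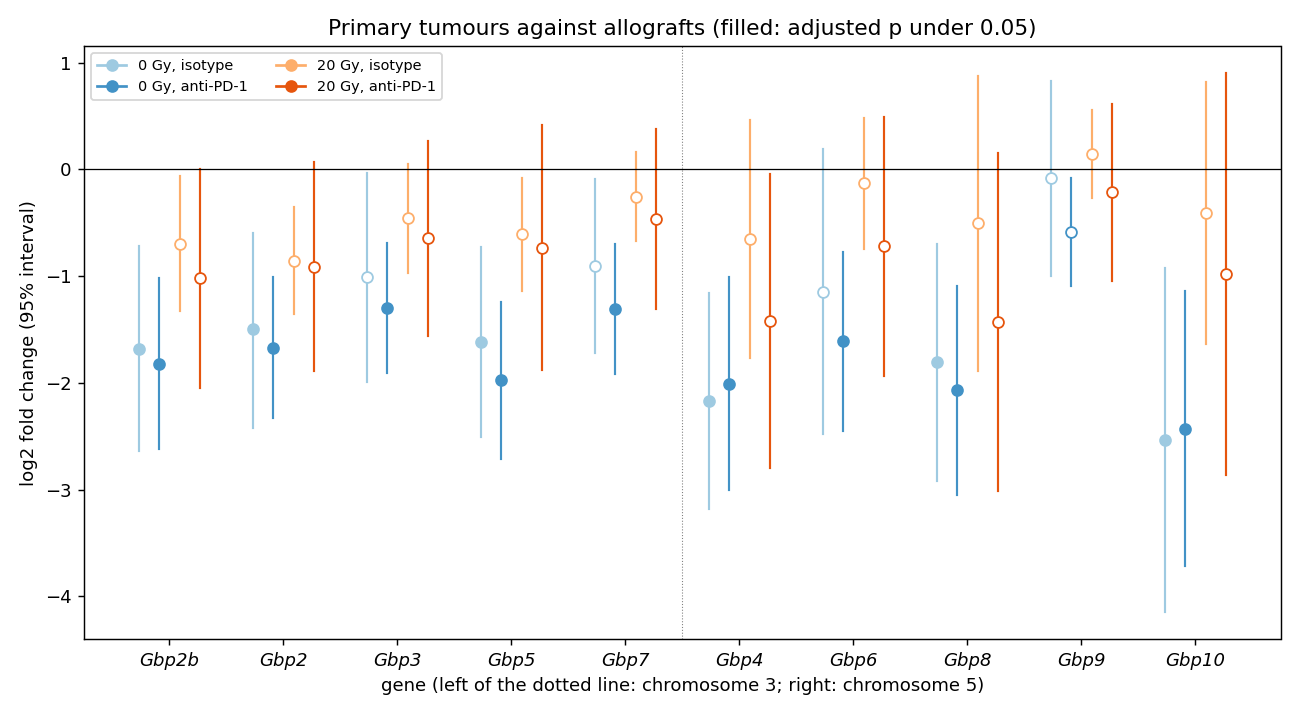
Log2 fold change of primary tumours against allografts for each gene under each of the 4 treatments, with 95% intervals. Filled points (adjusted p under 0.05) occur at 0 Gy alone, and Gbp9 lies nearest to 0 at 0 Gy.

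Whether 20 Gy acted differently in the 2 kinds was tested over all 48 tumours. With isotype the 10 estimates were all above 0, from 0.189 (Gbp9) to 2.08 (Gbp10), but 0 were called, against 0.00517% of genes, and 0 had an unadjusted p under 0.05, against 9.9%. With anti-PD-1 0 were called (0% of genes) and 1 had an unadjusted p under 0.05 (Gbp5, at 1.27, SE 0.615), against 4.77%. For the combination 0 were called (0% of genes) and 0 had an unadjusted p under 0.05, against 6.41%. The change in the kind difference between 0 Gy and 20 Gy was thus tested and was called in no member.

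Across the 8 groups the order of mean log2 levels was much alike from gene to gene. Untreated primary tumours were lowest for all 10 genes. Irradiated allografts, with one antibody or the other, were highest for 9, and for Gbp9 the irradiated primary tumours with isotype were highest at 148.2 ± 38.73 CPM. The top 3 groups of Gbp9 lay within 0.041 log2 units of their neighbours, well inside a pooled SD of 0.315. For Gbp5, neighbouring groups differed by more than their pooled SD at 3 places: between the lowest 2 groups, between untreated allografts and irradiated primary tumours with anti-PD-1, and between allografts on anti-PD-1 alone and irradiated allografts with isotype. For Gbp6 no neighbours did.

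Within groups the 10 genes varied together. Deviations of log2 CPM from the group means over 48 tumours had Pearson's r of 0.782 to 0.971 (median 0.914) in the 10 pairs within chromosome 3, 0.661 to 0.91 (median 0.85) in the 10 pairs within chromosome 5 and 0.452 to 0.942 (median 0.828) in the 25 pairs between them. These are descriptions, since all genes share the library and its mixture of cells.

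The same deviations were set against those of Ifng, in 10 correlations with a two-sided permutation test of 100000 resamples within groups. Permutation p are printed before adjustment. After Benjamini-Hochberg adjustment over the 10 members the largest, for r over 48 tumours, was 0.00227 (Gbp3). Gbp4 had r = 0.857 and rho = 0.851 (n = 48, permutation p = 1e-05 for each, the smallest the resamples can give). Gbp8 had r = 0.844, Gbp10 0.812, Gbp5 0.781, Gbp6 0.78 and Gbp2b 0.772, each again at that smallest p. Gbp2 had 0.685 and Gbp7 0.662. Gbp9 had r = 0.582 (permutation p = 0.00016; rho = 0.515, p = 0.00093) and Gbp3 was lowest at 0.49 (permutation p = 0.0023; rho = 0.42, p = 0.0084). Without the 2 tumours farthest in Ifng, both irradiated primary tumours given anti-PD-1, r ran from 0.487 to 0.862. Within the 16 allografts r was 0.515 (Gbp9, permutation p = 0.13) to 0.869 and within the 32 primary tumours 0.463 to 0.87. Ifng was low, with as little as 1 count in untreated primary tumours, which limits these values.

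Other genes followed the members to different degrees. Irf1 had r of 0.719 to 0.888 with the 10. Ptprc had 0.33 with Gbp3 and 0.815 with Gbp8, and the T cell gene Cd3e 0.341 with Gbp3 and 0.886 with Gbp8. The macrophage gene Adgre1 had 0.324 to 0.635, and Col1a1, a collagen gene of the mesenchymal compartment, -0.0902 to 0.209. These are descriptions and carry no test. Gbp8 thus followed leukocyte genes most closely of the 10 and Gbp3 least.

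**Figure D5:**
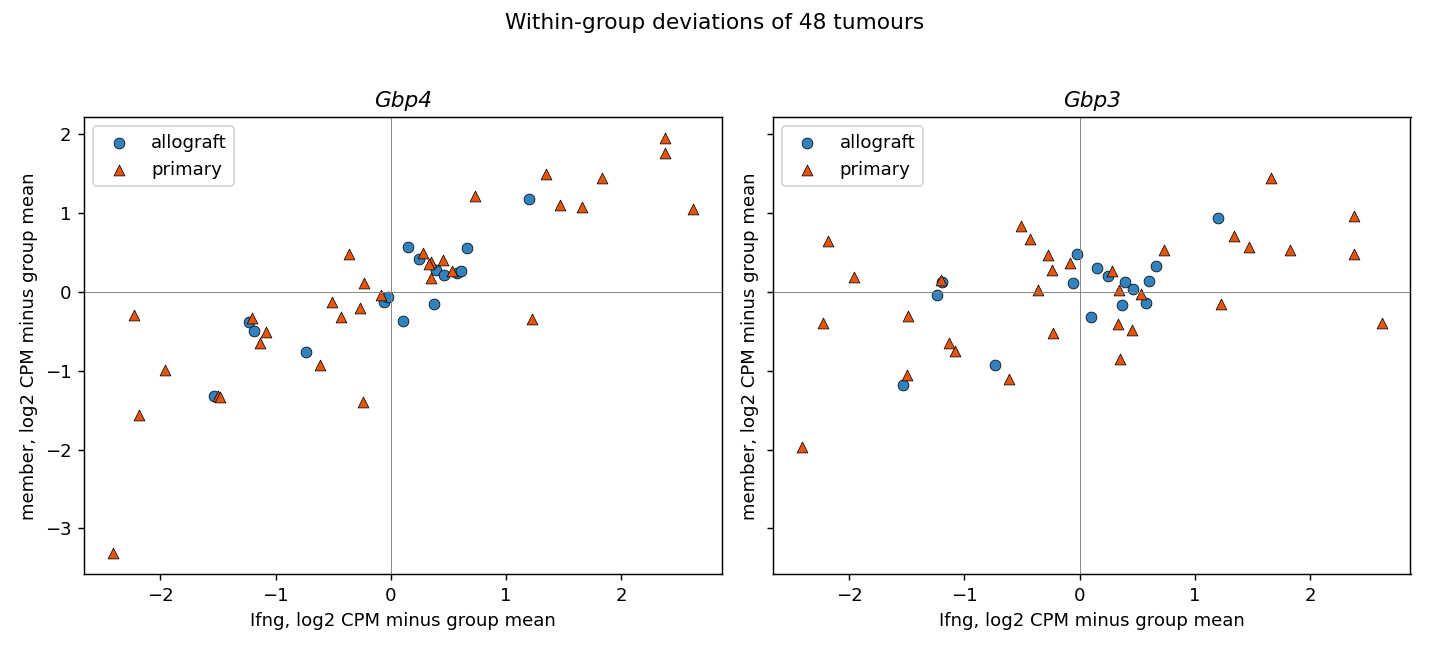
Within-group deviations of Gbp4 and of Gbp3 in log2 CPM plotted on those of Ifng, 1 point per tumour, 16 allografts and 32 primary tumours. Gbp4 follows Ifng closely (r = 0.857) and Gbp3 loosely (r = 0.49).

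The genes most like each member, by r of these deviations among 14392 genes, were as follows. For Gbp2b they were Igtp (0.96), Iigp1 (0.95) and Tap1 (0.923), against a median r of -0.0461 over all genes. Gbp5 and Gbp6 had the same 3 genes, Iigp1 first at 0.944 and 0.959. Gbp2 was nearest to Igtp (0.947), Irgm2 and Irgm1, and Gbp7 to Irgm2 (0.926), Iigp1 and Gm4951. Gbp9 was nearest to Irgm1 (0.884), Irgm2 and Uba7, the activating enzyme of ISG15. Gbp4 was nearest to Serpina3f (0.932), Tgtp1 and the chemokine gene Cxcl9, and Gbp10 to Gm12185 (0.912), Serpina3f and Cxcl9. Gbp3 was nearest to Zbp1 (0.914), a sensor of Z-form nucleic acid, Irgm2 and Olfr56. Gbp8 was nearest to AW112010 (0.915), Slamf8 (0.913) and Nkg7 (0.912), the last a gene of cytotoxic lymphocytes. Slamf8 also had an r of 0.907 with Gbp4 and of 0.875 with Gbp10.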

How the data were processed

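Poly(A) RNA of 48 mouse tumours was sequenced from strand-marking libraries, per the labels' protocols. Reads were trimmed with Trimmomatic 0.36, aligned with STAR to mm10 and counted with HTSeq, per the submitters' processing notes; the annotation and strand setting are not given in the sources used here. The authors deposited raw counts per gene in 1 table.

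Symbols, coordinates and exon lengths came from GENCODE M21. Genes were filtered with filterByExpr, scaled by TMM and tested with edgeR 4.0.16 (quasi-likelihood) in R 4.3.3, with Benjamini-Hochberg adjustment over all genes tested and calls at 0.05. The 4 groups of a tumour kind shared 1 fit, kinds were compared in fits of 2 groups, and kind interactions in a fit of all 48 tumours. SE was the log2 fold change divided by the square root of F. Correlations used log2 CPM with a prior count of 2. DESeq2 1.42.0, RLE scaling, no filter, other sample sets, 4 covariates and leaving out each tumour were the alternatives.

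The fit was tested on simulated data drawn from these counts: for 20 Gy against 0 Gy with isotype it called 38% of genes changed 2-fold and 84% changed 4-fold in allografts (17542 genes), and 65% and 91% in primary tumours (17633 genes). The changed genes, 100 per fold, were drawn only from genes with higher counts, so detection of low genes was not tested. Unchanged genes called numbered 4 in allografts and 7 in primary tumours. Depth was 31.8 to 54 M counts (M for 1e6). The sample titles give each of the 48 tumours an identifier of its own, but no label states that these are separate mice; if they are not, p-values measure only the spread between these tumours. No 2 tumours agreed within sampling noise (chi-square over its degrees of freedom at least 85.6 within groups and 56.1 between groups). The members and lists were chosen with earlier results of these data known. All 10 members are named; of each pathway list at most 3 called genes are named, those with the smallest p that average 5 CPM or more where they are higher, besides Ifng and Irf1, and the 3 genes most like each member. A further signalling gene that the rule names is not reported here. Gbp11, Ifnb1, Ptprc, Cd3e, Adgre1 and Col1a1 were named in addition, after their values were seen, and the pan-leukocyte and mesenchymal lists are named whole. Replicate numbers were assigned in accession order, only name tumours and pair none.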

Additional observations from a re-analysis of the deposited data

Results flagged for a closer look

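Single tumours far from the rest of their group were screened for the 10 genes and Ifng in each of the 8 groups, and 8 of 88 combinations of gene and group stood out by Dixon's gap ratio at the 95% level. Chance flags about 1 in 20 groups, and the members share their tumours.

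The irradiated primary tumour given anti-PD-1 with replicate number 5 was far below its group in Gbp3 (56.5 CPM), Gbp5 (16.4 CPM), Gbp7 (41.2 CPM) and Gbp9 (29.5 CPM). The irradiated primary tumour given isotype with replicate number 5 was far above its group in Gbp2b (606 CPM) and Gbp5 (225 CPM). Among allografts, Gbp7 was far above the group in replicate 4 of the irradiated tumours given anti-PD-1 (338 CPM). Gbp10 was far below the group in replicate 1 of the irradiated allografts given isotype (10.01 CPM).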

How the results depend on the processing

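No paired analysis was possible because the labels give no replicate numbers; those used here were assigned in accession order. In primary tumours with isotype, 20 Gy called 10 members under each alternative (10 to 10 without single tumours) except 9 with the Ptprc covariate, and the combination against neither treatment likewise. For 20 Gy in allografts with isotype (5 called) DESeq2 called 10, the fit of only 2 groups 2, all 48 tumours 2, the identifier digit 1, Xist 3, Ptprc 0, and leaving out single tumours 1 to 9. For 20 Gy in allografts with anti-PD-1 (0 called) DESeq2 called 1. For the combination in allografts (9 called) all 48 tumours gave 4, Ptprc 0, and leaving out tumours 6 to 10. For 20 Gy in primary tumours with anti-PD-1 (8 called) Ptprc gave 4, only 2 groups 5, and leaving out tumours 5 to 10. Between kinds with neither treatment (6 called) muscle markers gave 3, Xist 1, Ptprc 0, and leaving out tumours 0 to 7; with anti-PD-1 (9 called) the digit gave 0, muscle markers 3, Ptprc 0, and leaving out tumours 3 to 9; at 20 Gy with isotype (0 called) DESeq2 gave 1 and leaving out tumours 0 to 3. The cause was not tested. Shares of all genes called under these alternatives are not given here, so the counts cannot be set against all genes. The digit could not be fitted between kinds with neither treatment, and with anti-PD-1 at 0 Gy it nearly coincided with kind.

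With Ptprc as covariate these estimates changed sign: at 20 Gy in allografts with isotype Gbp8 (-0.487); with anti-PD-1 Gbp2b (-0.747), Gbp2 (-0.598), Gbp3 (-0.0318), Gbp5 (-0.444), Gbp7 (-0.608), Gbp4 (-0.191), Gbp6 (-0.442), Gbp8 (-0.592) and Gbp10 (-0.597); for the combination Gbp8 (-0.147); and between kinds with neither treatment Gbp9 (0.662). Gbp9 there ran from -0.297 to 0.207 without single tumours, being 0.207 without allograft replicate 3, 0.0248 without primary replicate 1 and 0.0183 without primary replicate 8. Ptprc was itself called higher after 20 Gy with isotype in both kinds of tumour. In allografts its levels did not overlap between 0 Gy and 20 Gy with either antibody. The covariate can hardly be separated from dose there, so these signs decide nothing. Depth limits Gbp10 and Ifng in untreated primary tumours, down to 5 counts and 1 count.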
